A study of Homo sapiens with 6 samples.

Results

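Peaks of acetylated NEIL1 (AcNEIL1) on the long arms of chromosomes 8 and 10 were described in the human colorectal adenocarcinoma line HCT116. A peak belonged to the set where its table row, in hg38, lay on chromosome 8 with a start of at least 47 Mb (8q) or on chromosome 10 with a start of at least 42 Mb (10q). The rule used position alone, and it took 10381 of the 149862 rows in the 3 peak tables. Replicates 1, 2 and 3 contributed 2781, 4122 and 3478 peaks, which were 6.97%, 6.84% and 6.99% of their tables. Of these, 1037, 1304 and 1253 peaks lay on 8q, and 1744, 2818 and 2225 lay on 10q. The study held 3 ChIP libraries made with a rabbit antibody to AcNEIL1 and 3 libraries of input DNA taken before the precipitation, all from exponentially growing, untreated HCT116 cells. Each peak table came from 1 ChIP library and the input library of the same number. Nothing in the labels ties the replicates to separate cultures, so their spread could be purely technical, and HCT116 is a single line.

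NEIL1 is one of the glycosylases of DNA that cut out oxidised bases and so begin base excision repair, and acetylation of lysines is a modification of a share of its molecules that an antibody can recognise. HCT116 is a near-diploid line whose karyotype is known to carry extra material of 8q and a duplicated stretch of 10q. In ChIP followed by sequencing, a stretch of the genome with more copies gives more tags in the ChIP and in the input alike, and the peak caller sets each peak against the input around it. Copy number itself was not among the values analysed here.

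Among the genes of 10q described below, 3 of the 4 whose promoter overlapped a peak in all 3 replicates are shown. The sequences are the 250 bases before their start (RefSeq, GRCh38.p14, plus strand, 5′ to 3′), with CpG dinucleotides in capitals. SNCG encodes gamma-synuclein, HMX2 a homeobox transcription factor of inner ear development and SYT15 a member of the synaptotagmin family.
SNCG, chr10:86955509-86955758: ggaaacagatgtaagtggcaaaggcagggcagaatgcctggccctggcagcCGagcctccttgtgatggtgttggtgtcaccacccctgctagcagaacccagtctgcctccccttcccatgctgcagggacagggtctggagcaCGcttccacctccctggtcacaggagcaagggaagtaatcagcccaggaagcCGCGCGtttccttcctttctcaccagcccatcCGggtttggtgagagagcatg
HMX2, chr10:123147886-123148135: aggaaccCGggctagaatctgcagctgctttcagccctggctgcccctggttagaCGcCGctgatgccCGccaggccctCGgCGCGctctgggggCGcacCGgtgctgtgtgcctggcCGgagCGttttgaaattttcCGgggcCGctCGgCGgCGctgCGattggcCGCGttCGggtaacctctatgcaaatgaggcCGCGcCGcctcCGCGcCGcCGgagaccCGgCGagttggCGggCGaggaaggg
SYT15, chr10:46578878-46579127: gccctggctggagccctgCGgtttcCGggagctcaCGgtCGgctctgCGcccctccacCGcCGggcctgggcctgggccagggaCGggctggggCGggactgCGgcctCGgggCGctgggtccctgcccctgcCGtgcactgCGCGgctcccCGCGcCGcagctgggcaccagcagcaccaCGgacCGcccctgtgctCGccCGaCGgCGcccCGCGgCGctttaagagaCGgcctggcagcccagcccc
The SNCG stretch held 6 CpG dinucleotides, against 31 in that of HMX2 and 28 in that of SYT15. SYT15 was the only one of the 3 with a GC box, the letters GGGCGG on either strand.

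The ChIP libraries held 31921768, 28814429 and 35222701 tags after filtering and their inputs 32877739, 37772127 and 33606858 tags in replicates 1, 2 and 3. Replicate 2 had the fewest ChIP tags, the most input tags and the most peaks. For each peak the tables give the pileup, the number of extended tags stacked at its summit, and the fold enrichment, the pileup over the local background with 1 added to each. The local background is the number of tags expected at the summit from the input around it, and it was recovered here from the other values. It cannot go below a floor set by the whole library, which was 3.17, 3.14 and 3.1 tags in replicates 1, 2 and 3. A peak over a higher background needs a higher pileup to enter the table, so the medians of pileup and background over peaks are not independent of each other.

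Peaks were dense on 10q and sparse on 10p, while the densities of 8q and 8p overlapped. On 10q there were 18.96, 30.6 and 24.2 peaks per 1 Mb bin in replicates 1, 2 and 3, against 5.54, 7.68 and 5.78 on 10p, counting bins that hold a gene or a peak (92 on 10q and 41 on 10p). The ratio of 10q to 10p was 3.86 ± 0.394 (SD, n = 3 replicates) and every replicate of 10q lay above every replicate of 10p. On 8q there were 10.5, 13.2 and 12.7 peaks per bin over 99 bins, against 11.2, 16.8 and 12.6 per bin over 45 bins of 8p. The ratio was 0.908 ± 0.113, and it was below 1 in replicates 1 and 2 and at 1.0 in replicate 3. An exact two-sided sign-flip permutation test of the log ratios gave p = 0.25 for 10q against 10p and p = 0.5 for 8q against 8p. With 3 replicates 0.25 is the smallest p that this test can give. The other chromosomes had 17.3 ± 3.54 peaks per bin, and among 40 chromosome arms with enough bins 10q ranked 12 in density and 8q ranked 28.

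**Figure D1:**
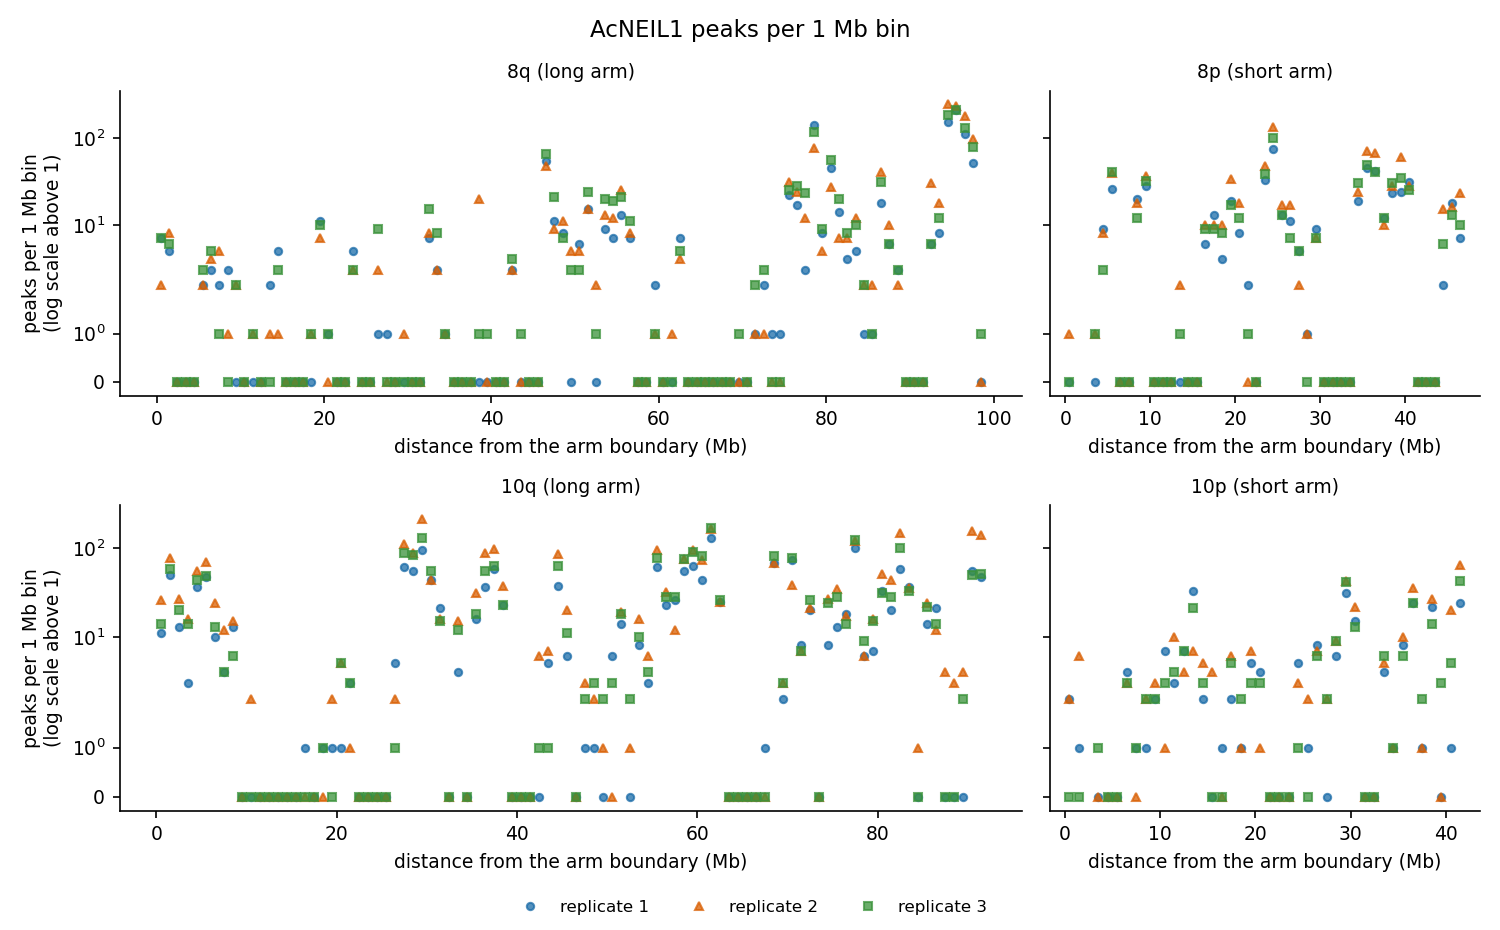
AcNEIL1 peaks per 1 Mb bin (vertical axis, log scale above 1) against the distance from the arm boundary in Mb, for 8q and 8p in the upper row and 10q and 10p in the lower row, with 1 point per bin and replicate. The bins near the far end of 8q hold up to 244 peaks, and most high bins of 10q lie in several separate groups along the arm.

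In both long arms the peaks stood on a higher background and reached a higher pileup than in the short arm of the same chromosome. On 8q the median local background was 7.0, 8.22 and 6.0 tags in replicates 1, 2 and 3, against 4.66, 4.80 and 4.00 tags on 8p. The ratio was 1.57 ± 0.122 (SD, n = 3), and the values of 8q and 8p did not overlap. The median pileup was 25, 26 and 22.9 tags on 8q, against 19, 19 and 18.1 tags on 8p, a ratio of 1.32 ± 0.0527. On 10q the median local background was 5.46, 5.83 and 5.00 tags, against 3.83, 4.49 and 3.49 tags on 10p, a ratio of 1.39 ± 0.0758. The median pileup was 21, 22 and 20.0 tags on 10q, against 16, 18 and 16.2 tags on 10p, a ratio of 1.26 ± 0.0487. Here too the long arm exceeded the short arm in every replicate.

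The background differed more between the arms than the pileup did, and the median fold enrichment was slightly lower on the long arms. Over a higher background a peak can enter the table at a lower fold. The medians of fold and background are therefore not independent of each other either. The ratio of median fold enrichment was 0.920 ± 0.0284 for 8q over 8p and 0.944 ± 0.0240 for 10q over 10p, and it was below 1 in each of the 3 replicates on both chromosomes. Each of these 6 ratios of background, pileup and fold gave p = 0.25 in the exact sign-flip permutation test, which is the smallest p possible. Peaks within 2% of the floor of the background made up 2.12%, 0.537% and 1.44% of the peaks of 8q, against 15.2%, 4.77% and 16.1% of those of 8p. On 10q they made up 8.31%, 5.22% and 8.58%, against 38.3%, 9.52% and 38.8% on 10p. Among the 40 arms, 8q ranked 1 in median pileup and in median background and 40, the lowest, in median fold enrichment. On 10q these ranks were 5, 5 and 37. The arms 17q and 16q ranked 2 and 3 in median background and 39 and 38 in median fold enrichment. These arm medians hide differences along each arm.

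Along 10q the local background went up at the same place in all 3 replicates and came down near the end of the arm. The largest step that left at least 10 Mb on each side was upward at 98 Mb, where the mean of log2 bin medians was 0.44 ± 0.08 higher in the distal part than in the proximal part (SD, n = 3). Each replicate on its own also placed its largest step at 98 Mb. The bin from 97 Mb had median backgrounds of 4.19, 4.72 and 4.00 tags in replicates 1, 2 and 3, and the next bin, from 98 Mb, had 6.17, 6.70 and 5.50 tags. In pileup the largest step also lay at 98 Mb, with a size of 0.27 ± 0.02, though replicate 3 alone placed it at 100 Mb. By size the background step of 10q ranked 11 among the largest steps of 40 arms.

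A downward step followed near the end of 10q. With a smallest side of 5 bins, the last of them partly filled, the largest step was a fall by 0.44 ± 0.19 at 129 Mb. This was the last boundary allowed, and with 3 bins on each side the step also lay at 129 Mb. The bin from 128 Mb had backgrounds of 6.77, 7.63 and 5.98 tags, while that from 132 Mb had 3.17, 3.36 and 3.1 tags, close to the floor. The 3 bins between them held at most 4 peaks in any replicate. When both ends of a raised interval were allowed to vary, the interval from 98 to 129 Mb gave the strongest contrast after weighting by the number of bins, with bin medians 0.57, 0.55 and 0.54 higher on the log2 scale inside it than outside it in replicates 1, 2 and 3 (0.56 ± 0.01).

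These boundaries divided 10q into a proximal stretch (42 to 98 Mb), a band (98 to 129 Mb) and an end (from 129 Mb). They were set by the background itself, so the following values are a description. The median background was 4.48, 4.96 and 4.00 tags in the proximal stretch, 6.51, 7.18 and 5.97 tags in the band and 3.17, 3.59 and 3.1 tags in the end. The band stood 1.46 ± 0.0248 times above the proximal stretch and 1.99 ± 0.0614 times above the end. Its level was not even. The bin from 112 Mb had 4.53, 5.34 and 4.70 tags, and that from 113 Mb had 4.54, 4.73 and 4.88 tags. Both lay closer to the median of the proximal stretch than to that of the band in each replicate. The median pileup followed in the same order, with 23, 25 and 21.9 tags in the band, 19, 20 and 18.1 tags in the proximal stretch and 16, 18 and 15.3 tags in the end. The median fold enrichment ran the other way, at 3.77 ± 0.0864 in the end, 3.52 ± 0.110 in the proximal stretch and 3.21 ± 0.0916 in the band.

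The band was richer in peaks than the proximal stretch, with 880, 1159 and 1143 peaks, or 34.2 ± 5.05 per bin, against 18.4 ± 5.29 per bin in the proximal stretch. The end had 20.8, 62.6 and 20.8 peaks per bin in replicates 1, 2 and 3, and the band was denser than it in replicates 1 and 3 and less dense in replicate 2. The proximal stretch, which carries RET and FAS, had a background 1.14 ± 0.0330 times that of 10p. The end held 104 peaks in replicate 1 and 104 in replicate 3, against 313 in replicate 2. Of all peaks in the end, 51.9%, 35.5% and 62.5% in replicates 1, 2 and 3 lay within 2% of the floor. Without the band, the ratio of 10q to 10p was 1.12 in background and 1.12 in pileup, a setting added after the data were seen.

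**Figure D2:**
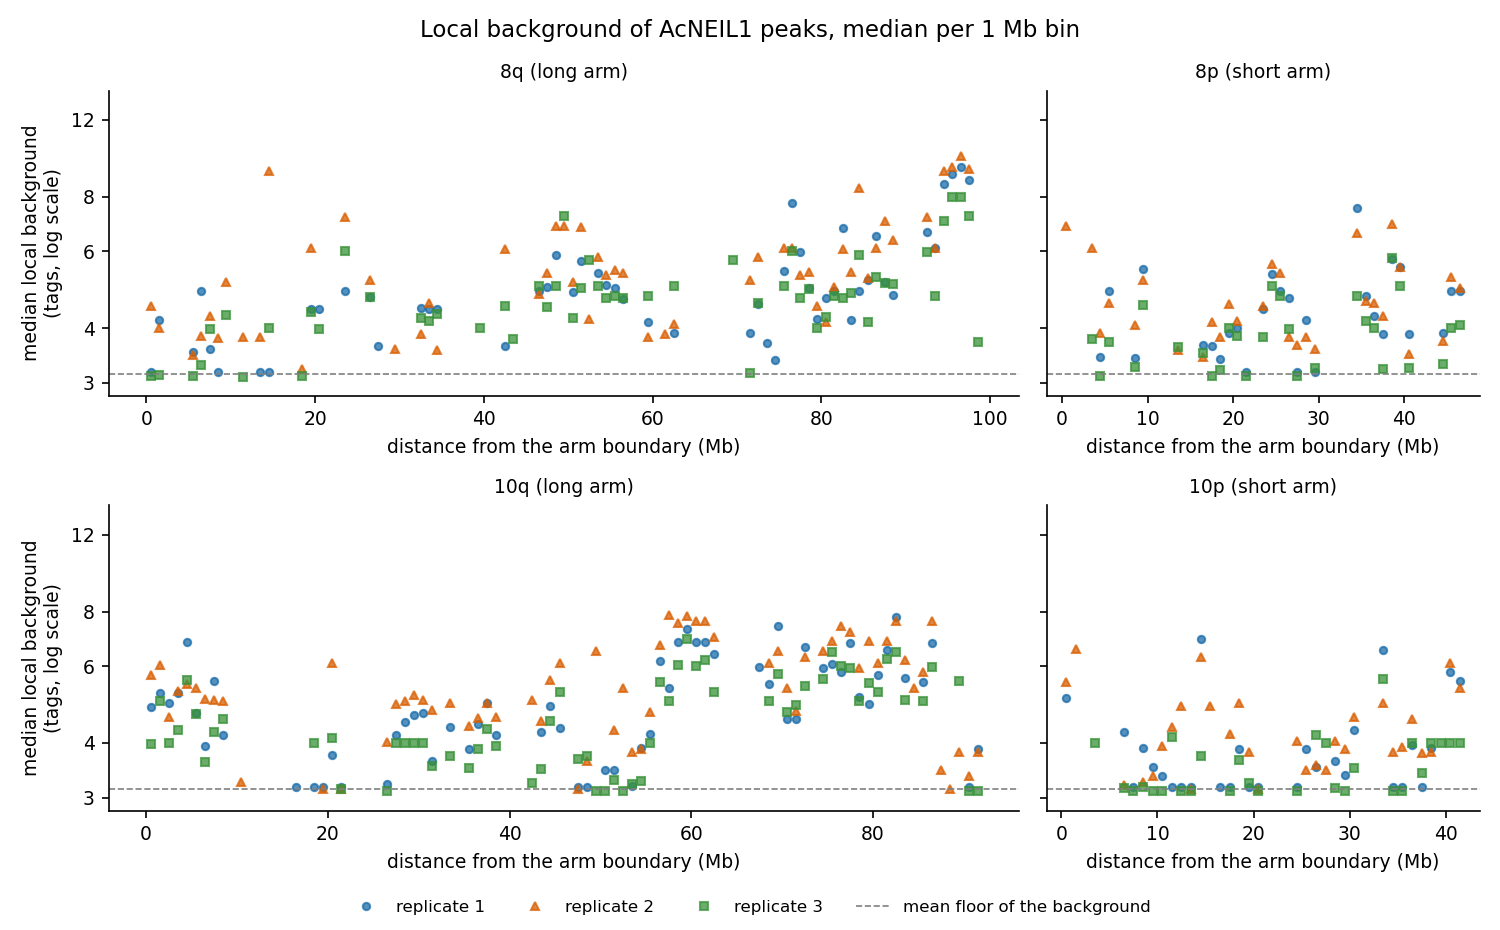
Median local background of the peaks in each 1 Mb bin (tags, log scale) against the distance from the arm boundary in Mb, for the long arms at left and the short arms at right, with 1 point per bin and replicate and a dashed line at the mean floor of 3.13 tags. On 10q the points lie higher over one stretch, with some lower bins inside it, and drop to the floor beyond it. On 8q they are highest at the far end. The values of 2 bins above the axis are not drawn, those of 8q at 67.8 tags in replicate 2 and 91 in replicate 3 and that of 10p at 31.1 tags in replicate 1.

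On 8q the background was low near the centromere, intermediate over most of the arm and high in the last megabases. With at least 10 Mb on each side, the largest step was upward at 136 Mb, at 0.82, 0.65 and 0.38 on the log2 scale in replicates 1, 2 and 3 (0.62 ± 0.22), and it ranked 3 among the 40 arms. Replicates 1 and 2 placed their own largest step at 136 Mb and replicate 3 placed it at 66 Mb. On 8q, 136 Mb was the last boundary that this scan allowed, and no replicate had a peak from 136 to 139 Mb. The scan therefore did not locate the step more closely. With 5 bins on each side, the last of them partly filled, the step moved to 141 Mb, again the last boundary allowed. With 3 bins on each side it also lay at 141 Mb. Without replicate 1, and with bins of at least 3 peaks only, it moved to 61 and 62 Mb, so its place depended on the setting. Bins there were sparse, with 5, 1 and 3 peaks in that from 61 Mb and none from 62 to 65 Mb. The bin from 140 Mb had medians of 6.12, 6.09 and 4.74 tags, and that from 141 Mb had 8.56, 9.15 and 7.02 tags. The scan for a raised interval gave 82 to 145 Mb on 8q, and so placed no end at the boundaries of the single steps. Inside it, bin medians were 0.42, 0.49 and 0.49 higher on the log2 scale than outside in replicates 1, 2 and 3 (0.47 ± 0.04). That interval opens on 3 empty bins, so its first filled bin lay from 85 Mb. This bin held 20 peaks in replicate 2, at a median of 67.8 tags, 1 in replicate 3, at 91 tags, and 0 in replicate 1. These peaks lie on repeated genes described below, and the bin was kept in the scans of 8q.

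Cut at 66 Mb and 141 Mb, taken from these steps after they were seen, 8q had a proximal stretch with 29, 28 and 29 peaks, a middle stretch with 480, 517 and 618 peaks and a distal stretch with 528, 759 and 606 peaks. The median background was 3.38, 3.93 and 3.16 tags in the proximal stretch, 4.94, 5.67 and 4.88 tags in the middle and 8.83, 9.42 and 7.72 tags in the distal stretch. The distal stretch stood 1.68 ± 0.103 times above the middle, and the middle 1.48 ± 0.0521 times above the proximal stretch. Of the few proximal peaks, 44.8%, 14.3% and 48.3% in replicates 1, 2 and 3 lay within 2% of the floor. The floor thus limits the second ratio. Median pileups were 29, 30 and 26.7 tags in the distal stretch, 21, 21 and 19.1 tags in the middle and 16, 15.5 and 15.3 tags in the proximal stretch.

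The distal 4.07 Mb of 8q, which carry MAFA, PLEC and the LY6 genes, held 528 of 1037, 759 of 1304 and 606 of 1253 peaks of the arm in replicates 1, 2 and 3, in 5 of its 99 bins. There were 126 ± 23.5 peaks per bin, 17.7 ± 3.81 times as many as in the middle stretch. The last of the 5 bins is only partly filled and was counted as a full bin. Per Mb of length there were 155 ± 28.9 peaks, against 7.18 ± 0.952 in the middle. Peaks covered 10.6%, 22.4% and 12.7% of the sequence, against 0.349%, 0.365% and 0.404% of the middle. The proximal stretch had 0.115 ± 0.0247 times the density of 8p and 0.778 ± 0.0470 times its background. Without the distal stretch, the ratio of 8q to 8p was 0.458 in density, 1.07 in pileup and 1.13 in background.

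**Figure D3:**
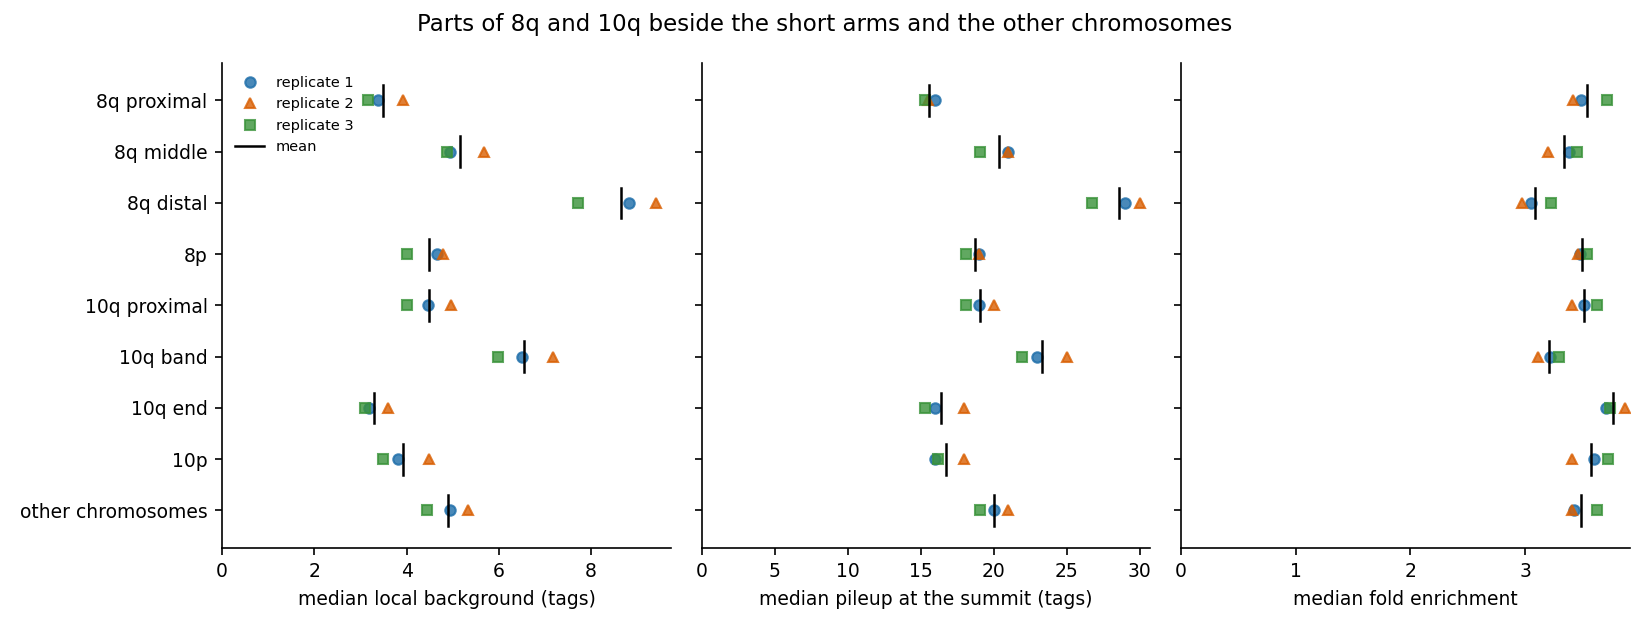
Median local background (tags), median pileup (tags) and median fold enrichment of the peaks in the stretches of 8q and 10q, the short arms and the other chromosomes, with 1 point per replicate and a line at the mean. The 8q distal stretch at 7.72 to 9.42 tags and the 10q band at 5.97 to 7.18 tags have the highest backgrounds, and the 10q end and the 8q proximal stretch have the lowest.

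Background also moved with the number of peaks in a bin, so bins of like counts were set side by side. Among bins with at least 80 peaks on average, the median background was 8.78 tags in the 3 bins of the 8q distal stretch, 7.08 in the 4 bins of the 10q band, 4.48 in the 2 bins of the 10q proximal stretch and 3.41 in the 2 bins of the 10q end. In 160 such bins of the other chromosomes the median was 5.25 tags, and 90% of them lay between 4.46 and 7.46 tags. The highest of them reached 9.03 tags, so the level of the 8q distal bins was also met elsewhere. Among bins with 10 to 30 peaks the median was 6.12 tags in the 10 bins of the band, 5.36 in the 12 bins of the 8q middle stretch, 4.28 in the 12 bins of the 10q proximal stretch and 4.12 in 318 bins of the other chromosomes, where 95% lay below 5.78 tags. At 80 peaks and above, the 1 bin of the 8q middle stretch had 5.08 tags and that of 8p had 5.30. Among bins with 30 to 80 peaks the median was 5.69 tags in the band and 8.41 in the 1 bin of the 8q distal stretch. It was 4.88 in the 8q middle stretch and 4.72 in the 10q proximal stretch. In 330 such bins of the other chromosomes it was 4.63 tags. Of these, 90% lay between 3.70 and 5.98 tags, a range that includes the band median. Within these classes the stretches present still differed in background. No class held bins of every stretch, and the 8q proximal stretch had none in these classes. Bins within a library share it, and no test was run on them. Whether copy number or another property of these stretches set the input level was not tested.

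**Figure D4:**
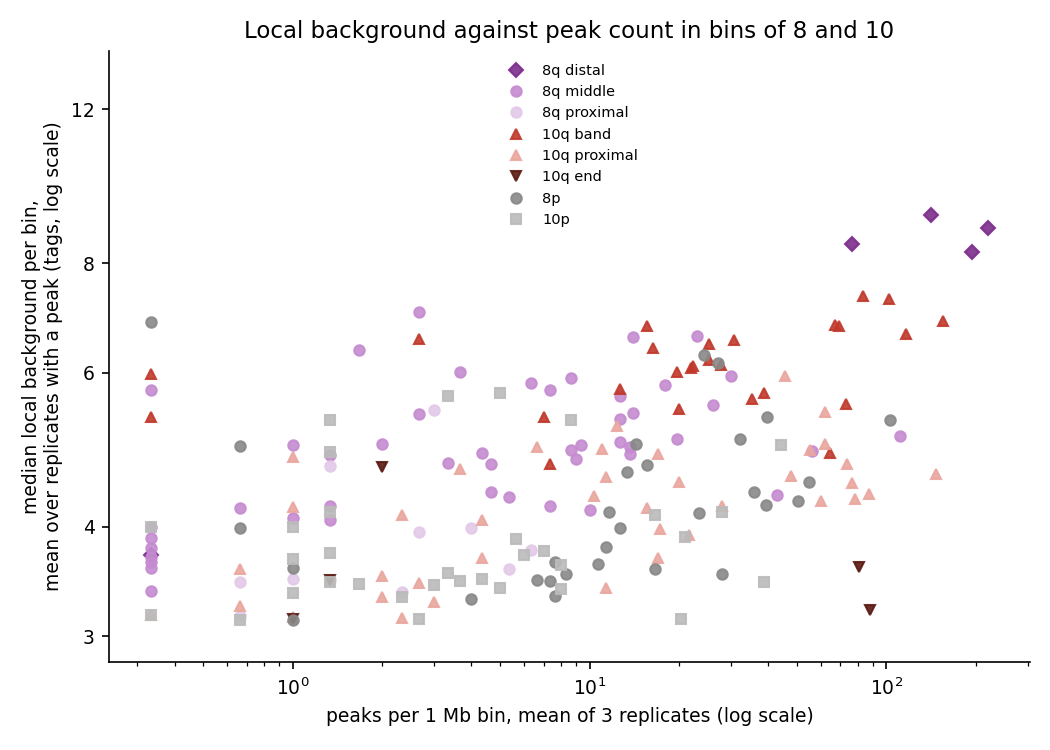
Median local background of a 1 Mb bin (tags, log scale) against its number of peaks (mean of 3 replicates, log scale), with 1 point per bin of chromosomes 8 and 10. At 80 peaks and above, the 8q distal bins lie near 8.78 tags, those of the 10q band near 7.08 tags and those of the 10q end near 3.41 tags. The bins above 14 tags, 1 of 8q and 1 of 10p, are not drawn.

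Peaks were more concentrated in few bins on 8q than on 10q. The 5 fullest bins of each replicate held 62.2 ± 4.01% of the peaks of 8q and 28.1 ± 1.21% of those of 10q (SD, n = 3), against 47.4 ± 2.72% on 8p and 60.4 ± 1.17% on 10p. No replicate had a peak in 35 of 99 bins of 8q (35.4%) and in 22 of 92 bins of 10q (23.9%), against 15 of 45 on 8p, 7 of 41 on 10p and 32.4% on the other chromosomes. The longest empty run of 8q went from 110 to 116 Mb and holds CSMD3, a large gene of a transmembrane protein, and TRPS1, a zinc finger factor. On 10q it went from 53 to 58 Mb and holds PCDH15, a protocadherin of the hair cell, and ZWINT, a kinetochore protein. Another run of 10q without a peak, from 105 to 109 Mb with the sorting receptor genes SORCS3 and SORCS1, lay inside the band. Bin counts were ranked alike by the replicates, with Spearman coefficients of 0.88 to 0.93 across 99 bins of 8q and 0.93 to 0.96 across 92 bins of 10q, and they were correlated with the number of protein-coding genes per bin at 0.60 on 8q and 0.73 on 10q. These coefficients describe bins that share libraries and mappability.

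The fullest bin of 8q, from 142 Mb, held 212, 236 and 211 peaks in replicates 1, 2 and 3. Of these, 43, 17 and 37 lay in ADGRB1, an adhesion receptor of brain and phagocytes, and 41, 62 and 34 lay in TSNARE1, a gene with a SNARE domain. The peaks of ADGRB1 in replicate 2 were fewer, and 1 of them spanned all of a merged region of 16473 bp that held 7 peaks in replicate 1 and 6 in replicate 3. The next bins, from 141 and 143 Mb, held 152, 244 and 185 peaks and 112, 181 and 130 peaks. On 10q the fullest bin, from 103 Mb, held 132, 165 and 169 peaks. Most of them lay in 2 genes, with 69, 113 and 101 in SH3PXD2A, a scaffold protein of podosomes, and 43, 36 and 40 in NEURL1, a ubiquitin ligase. The bin from 71 Mb had 50, 121 and 66 peaks in CDH23, a cadherin of the hair cell, and that from 119 Mb had 80, 100 and 97 in GRK5, a kinase of G protein-coupled receptors.

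In the middle stretch of 8q the fullest bin lay from 125 Mb, 2 bins before that of MYC. It held 141, 77 and 116 peaks, of which 68, 32 and 54 lay in NSMCE2, a SUMO ligase of the SMC5/6 complex. Here replicate 2, which had the most peaks of all, had the fewest. The same held in the bin of MYC, from 127 Mb, with 45, 27 and 56 peaks, and in that from 93 Mb, with 55, 48 and 66 peaks.

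Some peaks of very high pileup lay on repeated genes. In replicate 2 there were 20 peaks with a pileup above 60 tags in the bin from 85 Mb of 8q, against 1 in replicate 3 and 0 in replicate 1, all in 2 clusters at chr8:85642920-85663274 and chr8:85714333-85828569 that overlap the REXO1L pseudogenes. Their median fold enrichment in replicate 2 was 1.71, over a median background of 67.8 tags. In the end of 10q, 19 peaks of replicate 2 and none of the others passed 60 tags in 2 clusters at chr10:133665908-133682546 and chr10:133740694-133761073, which overlap DUX4L pseudogenes. Reads from such near-identical copies cannot be placed with certainty. On all of 8q 8, 62 and 10 peaks passed 60 tags, and on all of 10q 0, 21 and 0.

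To compare replicates at single sites, peaks that overlapped by at least 1 base were merged into regions. Of 1969 regions on 8q, 285 (14.5%) held a peak of all 3 replicates, and of 4026 on 10q, 498 (12.4%) did, against 13.2% of all 85534 regions of the genome. The shares on the short arms were 131 of 1147 on 8p (11.4%) and 34 of 581 on 10p (5.85%). Within 8q the share was 23.3% in the distal stretch, 8.26% in the middle and 4.35% in the proximal stretch, and within 10q it was 14.4% in the band, 11% in the proximal stretch and 9.80% in the end. The 8q distal share lay above that of the genome and that of 10p lay below it, while both long arms as a whole were close to it. In the 8q distal stretch, however, peaks covered 10.6%, 22.4% and 12.7% of the sequence in replicates 1, 2 and 3. Overlaps of 1 base are easier to meet where peaks cover more sequence. Whether the sites there were shared beyond this was not tested. Of the regions of a single replicate, replicate 2 held 47% on 8q and 51.8% on 10q.

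Among regions of all 3 replicates, those with the highest mean rank of fold enrichment on 8q were led by chr8:141356758-141367217 over GPR20, an orphan receptor, with folds of 6.01, 7.39 and 5.57. A pair of neighbouring regions of 8q, chr8:93842602-93846482 and chr8:93867072-93875771, had folds of 6.33 ± 0.823 and 6.22 ± 0.797 and lay 9949 and 34419 bp from TMEM67, a gene of the primary cilium. A region at chr8:127223373-127227879 had folds of 6.66, 5.32 and 6.88. It is intergenic with respect to protein-coding genes, 185568 bp from POU5F1B, and lies beside CCAT1. The fifth, chr8:143212275-143218337, covers GPIHBP1. Replicate 2 was highest at GPR20 and GPIHBP1 in the distal stretch and lowest in the 3 regions of the middle stretch.

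On 10q the same rule gave chr10:86953579-86958459 first, which covers the start of SNCG and an end of MMRN2, with folds of 6.11, 6.83 and 6.22 in replicates 1, 2 and 3. The region at chr10:72320625-72324389, 8474 bp from DNAJB12, had folds of 7.0, 5.59 and 8.96. At chr10:47759715-47764648 over ANXA8 and SYT15B the folds were 4.70, 8.90 and 5.10, and at chr10:44981847-44984870 inside RASSF4 they were 4.31, 8.55 and 5.93. Replicate 2 stood apart at these last sites. The fifth region, chr10:101220689-101232988, was the widest of 10q with 12300 bp and covers LBX1, with folds of 4.73, 6.01 and 4.89.

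Genes were then compared by gene-end peaks, that is peaks within 1 kb of either end of a protein-coding gene. On 8q 54 of 422 genes (12.8%) had one in at least 2 replicates, and on 10q 80 of 572 (14%) had one, against 47 of 284 on 8p (16.5%) and 8 of 161 on 10p (4.97%). Over the genome the share was 15.2%, so neither long arm stood far from it, and 10p lay below it. In all 3 replicates 35 genes of 8q (8.29%) and 48 of 10q (8.39%) had a gene-end peak, against 9.03% over the genome. The 8q distal stretch differed from the rest of its arm, with 39 of 100 genes in at least 2 replicates. In the middle 15 of 263 had one, and in the proximal stretch 0 of 59. The distal stretch also had 126 ± 23.5 peaks per bin, against 7.18 ± 0.952 in the middle. Denser peaks meet more gene ends by position alone, and a share beyond this was not tested. In the 10q band 36 of 205 genes (17.6%) had one, against 40 of 331 (12.1%) in the proximal stretch and 4 of 36 (11.1%) in the end.

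All 8 genes of 8q with the highest mean rank of fold lay in the distal stretch. GPIHBP1, whose protein carries lipoprotein lipase on capillary endothelium, had folds of 4.72, 6.69 and 5.86 in replicates 1, 2 and 3 (5.76 ± 0.986, SD, n = 3) and pileups of 45, 72 and 48.7 tags. ADGRB1 had folds of 4.80, 7.62 and 4.38 (5.60 ± 1.76), with replicate 2 far above the others. LY6D, a surface protein of the LY6 family, had 5.05, 6.68 and 4.68 (5.47 ± 1.06). MAFA, the insulin gene activator of beta cells, had 4.45, 6.59 and 4.71 (5.25 ± 1.17). RHPN1 had 4.16, 6.17 and 5.46, and LYNX1, a modulator of nicotinic acetylcholine receptors, averaged 4.96 ± 0.851. OPLAH, an enzyme of the glutathione cycle, and EXOSC4, a subunit of the RNA exosome, lie next to each other and shared 1 peak with a fold of 4.83 ± 0.486. In each of these genes replicate 2 was the highest.

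On 10q the genes with the highest mean rank lay in all 3 stretches. SNCG had folds of 6.11, 6.83 and 6.22 (6.39 ± 0.387), the tightest of the 8. SYT15B and SYT15 had 6.23 ± 2.32 and 4.98 ± 1.04, and they are near-identical copies of each other, so reads may be split between them. The homeobox genes HMX2 and LBX1, the second needed for migrating muscle precursors, had 5.21 ± 0.753 and 5.08 ± 0.807 and lie in the band. PRF1, which encodes perforin of cytotoxic lymphocytes, had 5.22, 4.51 and 5.85 (5.20 ± 0.672). SPOCK2, a secreted proteoglycan, had 4.79 ± 0.528, and VENTX, a homeobox gene in the end of 10q, had 4.08, 5.90 and 4.90. At VENTX the background was 3.17 tags in replicate 1 and 3.1 in replicate 3, both at the floor, and 4.93 in replicate 2.

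**Figure D5:**
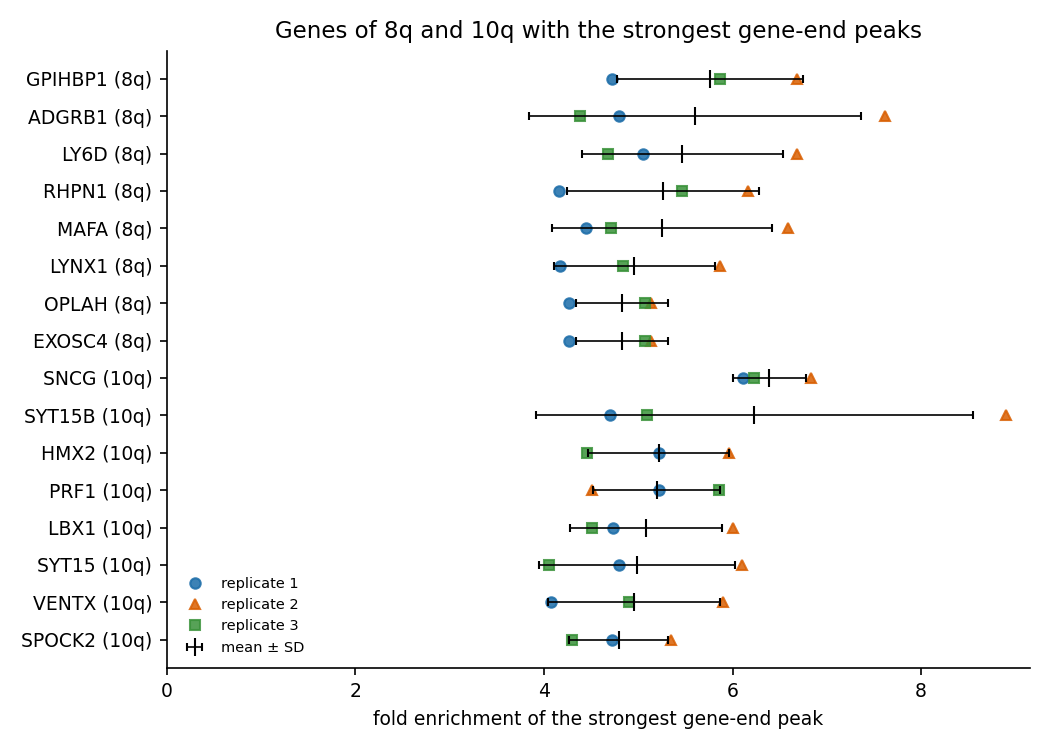
Fold enrichment of the strongest gene-end peak in each replicate (points) with the mean ± SD, for the 8 genes of 8q and the 8 of 10q with the highest mean rank. SNCG has the narrowest spread with 6.11 to 6.83, and SYT15B the widest with 4.70 to 8.90.

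Most genes named whatever their values had no gene-end peak, which held in every replicate for 14772 of all 19817 protein-coding genes of the genome as well. MYC, the oncogene of 8q, had none, and its nearest peak lay 53.1, 364 and 3.94 kb from an end in replicates 1, 2 and 3. PVT1, the non-coding gene beside it, had none at its ends, the nearest being 1.56 kb away. FAS, a death receptor, had its nearest peak 269 kb away. MGMT, which removes alkyl groups from guanine, NBN and PRKDC of double-strand break repair, and RECQL4, a helicase of the distal stretch whose nearest peak lay 2.69 kb away, had none either. RAD21, a cohesin subunit, and TCF7L2, a transcription factor of the Wnt pathway, each had a gene-end peak in replicate 3 alone, with folds of 3.27 and 3.13. TCF7L2 also had 5, 2 and 7 peaks in its body in replicates 1, 2 and 3.

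Among lists of genes by role, the LY6 family of 8q had the highest share. Of its 12 members 9 had a gene-end peak in at least 2 replicates, and the same 9 in all 3, among them GPIHBP1, LY6D, LYNX1, SLURP2, PSCA, LY6H and LY6K. Several are neighbours that share peaks, as LYNX1 and SLURP2 did with folds of 5.86 and 4.84 in replicates 2 and 3, and all lie in the distal stretch with its share of 39%. Of 16 developmental transcription factors of 8q 4 had one (25%, against 15.2% of all coding genes). They were MAFA, SCRT1 of neurons (4.68 ± 0.534), PRDM14 of germ cells (4.00 ± 1.59) and FOXH1 of Nodal signalling (3.58 ± 0.658). MAFA, SCRT1 and FOXH1 also lie in the distal stretch with its share of 39%, and PRDM14 lies in the middle stretch. None of the 5 carbonic anhydrase genes had one. CA8 lies in the proximal stretch, where 0 of 59 genes did, and the others lie in the middle stretch with its share of 5.70%. Of 14 repair and replication genes of 8q 2 did (14.3%, near the 15.2% of all coding genes), in 2 replicates each, namely NSMCE2 and TONSL, which acts at broken replication forks. None of the 6 protein-coding genes around MYC had one in 2 replicates, and the share of their stretch, the middle, was 5.70%. The colon cancer-associated non-coding gene CCAT1 had one in all 3, with folds of 6.39, 4.84 and 4.99 (5.40 ± 0.857). Of the other non-coding genes listed there, CASC8 had one in replicates 1 and 2 (3.89 and 3.88) and CCAT2 in replicate 1. PVT1, PCAT1, PRNCR1, CASC19 and CASC11 had none.

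On 10q, 9 of 19 genes in the list of homeobox and other transcription factors had a gene-end peak in at least 2 replicates, or 47.4%, against the 15.2% of all coding genes. In all 3 replicates 7 did. TLX1, of spleen development, had folds of 4.45, 6.82 and 3.73 (5.00 ± 1.61), and PAX2, of kidney and eye, had 4.09, 4.58 and 5.83 (4.83 ± 0.895). HMX3 had 4.53 ± 1.46, NKX2-3 of gut and spleen had 3.91 ± 0.119 and EMX2 had 2.69 ± 0.690. These genes and HMX2 and LBX1 all lie in the band. Of 17 genes listed for Wnt, FGF and TGF-beta signalling 3 had one (17.6%, near the 15.2% of all coding genes). SUFU, listed here though an inhibitor of Hedgehog signalling, had one in all 3 replicates (3.85 ± 0.523). The Wnt antagonist SFRP5 and the GSK3-binding FRAT1 had one in replicates 2 and 3.

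The remaining lists of 10q are given beside the same 15.2% of all coding genes. CYP17A1, of steroid synthesis, was the 1 of 8 cytochrome P450 genes, or 12.5% (3.94 ± 0.295). LDB3, of the Z-disc (3.5 ± 0.712), and SYNPO2L were the 2 of 14 muscle and cytoskeleton genes (14.3%), and PRF1 was the 1 of 13 immune genes (7.69%). The first 2 shares lay near that of all coding genes. None of 16 repair and replication genes, in any replicate, and none of 14 protein-coding surfactant, lipase and secreted protein genes, in 2 replicates, had a gene-end peak. The lists were chosen with earlier results of these data known, and their shares are a description.

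Summits lay between genes more often on 8q than on 8p. The share was 38.7%, 42% and 38.8% on 8q in replicates 1, 2 and 3, against 21.2%, 20.9% and 21.6% on 8p, while 25.5 ± 1.77% of the summits of 10q and 29.1 ± 1.48% of those of 10p lay there. In the 8q distal stretch it was 44.5 ± 2.42%, and in the bin from 141 Mb 106, 189 and 120 peaks lay outside coding genes. Summits within 1 kb of a gene end made up 10.1 ± 0.307% on 8q and 8.98 ± 0.108% on 10q, both below the 12.6 ± 0.317% of the other chromosomes in every replicate.

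Promoter windows of 10q, the 250 bases shown above for 3 genes, overlapped a peak in at least 2 replicates in 34 of 504 genes with a RefSeq sequence (6.75%), against 3.81% of such windows on all chromosomes but 8. The median GC content was 64.0% in these 34 windows and 62.4% in the 449 of 10q without any peak. CpG dinucleotides numbered 16 at the median with a peak and 18 without on 10q, against 9 with a peak and 18 without over all chromosomes but 8. A GC box stood in 61.8% of the windows with a peak and in 54.6% of those without on 10q. Over all chromosomes but 8 these shares were 48.3% with a peak and 56.6% without, so the difference ran the other way there. The 3 windows shown spanned this range, from 60% GC in SNCG over 70% in HMX2 to 78.8% in SYT15.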

How the data were processed

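Chromatin of crosslinked HCT116 cells was precipitated with a rabbit antibody against AcNEIL1, according to the labels, and 1 peak table per ChIP library was deposited. Peaks were called with MACS 2.1.1.20160309 for each replicate against the input of the same number, unpooled and as single-end reads, keeping q-values up to 0.05, at most 2 tags per position and the larger library scaled to the smaller, per the file headers. Input libraries entered only through these tables. The submitters' processing notes also list Trim Galore, FastQC, cutadapt, Bowtie2, SAMtools and bedtools, with no role. The deposited signal is the pileup of extended tags at the summit, scaled in replicate 3, per the file headers. The deposited fold is the ratio of pileup to local background, with 1 added to each. The deposited −log10 p and q are the caller's own, and the −log10 q served only for a stricter threshold of 5 and to rank peaks. Intervals for single peaks were not given, since the tables hold no counts behind them.

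Local background was computed as (pileup + 1)/fold − 1. Arms were divided into 1 Mb bins, and bins with no gene and no peak were left out. Steps were scanned over log2 bin medians. The scan was tested on simulated data with a single known step each and peaks in every bin. These data held no empty bins, no floor and no repeated genes, so the test does not cover those features of the arms. Ratios of arms were taken within replicates and tested by exact sign-flip permutation. Genes and promoters came from RefSeq GRCh38.p14 (19817 protein-coding genes, 15811 promoters, none of chromosome 8), and 163 of 164 listed genes were matched. Named genes were the 8 per arm with the highest mean within-replicate rank of fold among genes with a gene-end peak in all 3 replicates, up to 3 members of a list by the same rule, and 10 genes whatever their values, of which 1 is not reported here. Named regions were the 5 per arm of highest mean rank, and named bins the 3 fullest per arm. Members of lists counted in the text, the fullest bins of the 8q middle stretch and the stretches of each arm were named after their values were seen. The set and the lists were chosen with earlier results of these data known. Python 3.11.15, pandas 2.3.3 and numpy 2.4.6 were used.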

Additional observations from a re-analysis of the deposited data

How the results depend on the processing

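No paired analysis was possible because each table already joins a ChIP library with its input, so that ChIP and input samples could not be set against each other by number. The arm ratios were taken within replicates. Of 110 alternatives to 14 values, 73 kept the value within 1 SD of the replicates, a share within its 95% interval or a count of genes within 1.5 times, 35 moved it and 2 reversed it. The step of 8q kept its size within 1 SD while its boundary lay between 61 and 141 Mb. The reversed values were the step of 10q, which became -0.44 at 129 Mb with 5 or 3 bins on each side, because the shorter side admits the fall there. Measured in pileup that step was 0.27. A reversal was counted for steps alone, and a ratio that crossed 1 was counted as moved. This happened to the density of 8q over 8p, which went from 0.908 to 1.18 under the stricter threshold given next. With peaks of −log10 q from 5 upward, 8q over 8p was 1.18 in density, 1.38 in pileup and 1.70 in background, 10q over 10p was 4.58 in density, 8.81% of 10q regions were shared and 41 genes of 10q (7.17%, against 7.55% of all coding genes) had a gene-end peak. Without 5 Mb at the arm ends, 8q over 8p was 0.411 in density, 1.05 in pileup, 1.12 in background and 0.959 in fold, and 10q over 10p was 1.58 in background. With medians over bins, 8q over 8p was 1.09 in pileup and 1.19 in background and 10q over 10p was 1.17 in pileup. Settings added after seeing the data were 8q without its distal stretch (0.458 in density, 1.07 in pileup, 1.13 in background, 0.958 in fold) and 10q without its band (3.06, 1.12, 1.12 and 0.993). Requiring 50% reciprocal overlap left 5.50% of replicate 1 peaks on 8q and 5.10% on 10q. Leaving out 1 replicate gave shares between 24.2% and 27.7% on 8q and between 21.9% and 25.9% on 10q, since 2 lists overlap more than 3. Windows of 5 kb gave 118 genes on 8q and 194 on 10q (28% and 33.9%, against 32.3% of all), and all 3 replicates gave 35 and 48 (8.29% and 8.39%, against 9.03%). Where no construction is named, the cause was not tested. Depth is known per library, not per peak, and a background at the floor cannot show a lower input.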
